A study of Danio rerio with 18 samples.

Results

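The genes described here are those for the translation initiation factors (eIF1 to eIF6, with their kinases and binding proteins) and the translation elongation factors (eEF). They were taken by name: every row of the zebrafish count table whose gene name starts with eif1, eif2, eif3, eif4, eif5, eif6 or eef, whatever the case, which gave 84 genes of the 25193 in the table. The rule used no measured value, and the genes were compared in all 6 groups of the series. A level filter left 79 of the 84; eef1a1l3, eef1a2, EEF1AKMT2, EIF4E1B and 1 of 2 rows named EIF3B (ENSDARG00000074213) had too few counts to test anywhere.

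Each of the 18 libraries was made from a pool of transgene-positive zebrafish embryos, 24 hours after fertilization, with 3 samples in each of 6 groups. Angiotag IP is RNA immunoprecipitated with tagged ribosomes from Angiotag transgenic embryos, and Angiotag input is the RNA that went into that immunoprecipitation. Ribotag IP and Ribotag input are the same pair from Ribotag transgenic embryos. By the labels the pulldown used an antibody to the HA tag and collected an endothelial translatome in the Angiotag line and a whole-embryo translatome in the Ribotag line. In the study the tag sits on the large-subunit ribosomal protein rpl10a, and the Angiotag transgene is driven by the endothelial kdrl promoter. FACS sorted is RNA from GFP-positive endothelial cells sorted from Angiotag transgenic embryos. FACS total is total RNA from such embryos, taken here as the dissociated whole-embryo reference of the sort. No group lacked the transgene, and nothing given with the samples says whether samples 1 to 3 of a group were separate pools, so the p-values rest on a spread between samples that may be technical.

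Initiation factors bring the initiator tRNA and the small ribosomal subunit to the start codon of an mRNA, and elongation factors deliver charged tRNAs and move the ribosome along. eIF4E binds the mRNA cap and joins the scaffold eIF4G and the helicase eIF4A, the 4E-binding proteins block that joining, and kinases that phosphorylate eIF2 or eEF2 slow the whole process. Several of these mRNAs, those of the elongation factors above all, begin with a run of pyrimidines in vertebrates and are translated under control of the mTOR pathway.

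The libraries held 18.3 to 49.5 M counts (M, 1e+06). The 6 endothelial marker genes found in the table summed to 2440 to 4280 CPM (counts per 1e+06 counts) in Angiotag IP against 119 to 129 in its input, and to 4390 to 5950 in FACS sorted against 106 to 159 in FACS total. Ribotag IP, at 93 to 145, was at the level of its input. The 3 myeloid markers moved with the endothelial ones, at 324 to 782 CPM in Angiotag IP and 458 to 1320 in FACS sorted against 12.9 to 33 in Angiotag input and FACS total, and the 5 erythroid markers were at 2390 to 7250 and 4340 to 21100 against 1520 to 4560. The 4 skeletal muscle markers summed to 11300 to 14800 CPM in Angiotag IP and 10100 to 14900 in its input, the 5 neural ones to 942 to 1270 and 997 to 1010, and the 5 epidermal ones to 10100 to 17800 and 15100 to 19600, so Angiotag IP held RNA of other cell types at about the level of its input. Sorted cells held 224 to 264 CPM of the muscle markers against 1010 to 3410 in FACS total, 257 to 394 of the neural ones against 609 to 1020, and 4010 to 7870 of the epidermal ones against 6170 to 12800. Ribotag IP was above its input in muscle markers, at 11300 to 22100 against 7810 to 8710 CPM, and in neural ones, at 1440 to 1670 against 791 to 1010. The part of other cell types in the differences below was not tested. Mitochondrially encoded genes made up 0.108 to 0.288% of counts in the IP libraries against 3.74 to 4.47% in the inputs. Single libraries stood apart in their make-up: zgc:158463 took 15.3% of counts in FACS sorted 2 and 4.19% in Angiotag IP 1, cytosolic ribosomal protein genes took 7.29% in Ribotag IP 2 against 14.7% and 16.7% in the other Ribotag IP libraries, and 19.5% in FACS total 3 against 12.6% and 12.5% in FACS total 1 and 2. Tests are edgeR quasi-likelihood tests between the groups named, with Benjamini-Hochberg adjustment over all genes tested. A gene is said to rise, fall or pass at an adjusted p under 0.05, ± is a standard error for a log2 fold change, and CPM are normalized by TMM over all 18 libraries. CPM are not divided by gene length, so levels are compared between libraries and not between genes. Upper-quartile scaling in place of TMM moved the median log2 fold change of all genes by -0.205 in Angiotag IP against input and in FACS sorted against FACS total, and by -0.144 in Angiotag IP against Ribotag IP, so values near 0 there are relative to the scaling. In bulk RNA, fewer cells of a type and less RNA per cell cannot be told apart.

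Together the 84 genes took 3.16 to 6.15% of all counts. The share was 5.43, 5.36 and 6.15% in Ribotag IP 1 to 3 and 4.40, 4.41 and 4.49% in the inputs, so each Ribotag IP library lay above each of its inputs. Angiotag IP held 3.61, 4.64 and 3.64% against 4.48, 4.52 and 4.38% in its inputs, with sample 2 above and samples 1 and 3 below them. FACS sorted held 3.24, 3.16 and 3.95% against 3.97, 3.95 and 4.07% in FACS total. These are shares of raw counts, of which zgc:158463 alone took 15.3% in FACS sorted 2. The normalized CPM of the 84 genes summed to 31328, 37043 and 38520 in FACS sorted. FACS total held 32881, 31466 and 40713, so the groups overlapped on that scale. Much of the share came from eef1a1l1, a gene for eEF1A, the factor that carries charged tRNA to the ribosome, at 1.2 to 2.78% of counts by library, and from eef2b, a gene for eEF2, the translocation factor, at 0.331 to 1.16%. Without both, the rest took 2.05 to 2.21% in Ribotag IP against 1.99 to 2.04% in its inputs, and 1.7 to 1.93% in Angiotag IP against 1.86 to 1.96%.

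In sorted endothelial cells against whole-embryo total RNA, these genes lay close to their whole-embryo level. Of 78 tested, 0 rose and 1 fell, where 13.9% of all 19326 genes tested rose and 14.8% fell. At an unadjusted p under 0.05, 1 was higher and 3 were lower, beside 18.6% and 21.3% of all genes, and DESeq2 gave 1 higher and 1 lower, beside 17.4% and 16.3%. The median size of the log2 fold change, in either direction, was 0.143 for these genes and 0.704 for all genes, and 75 of the 78 (96.2%) lay within 2-fold against 61.8% of all genes. The median standard error was 0.308 for these genes and 0.397 for all genes, so all genes were also measured less precisely. The part of this in their wider spread was not tested. A change of about 0.308 in a single translation factor gene would not have been detectable with these samples. The median log2 fold change was -0.03, and -0.24 with upper-quartile scaling, where 15 of 78 were above 0 in place of 34.

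Recovery on tagged ribosomes gave more calls, with smaller standard errors than in the sorted-cell comparison. In Angiotag IP against input 75 of 78 genes (96.2%) lay within 2-fold, as many as in sorted cells, against 75.1% of all genes. In Ribotag IP against input 70 of 78 (89.7%) did, against 85.8% of all genes. The median standard errors were 0.195 and 0.265. Against Angiotag input, Angiotag IP had 3 of 78 genes higher and 4 lower, beside 12.1% of all genes higher and 11.9% lower; their median log2 fold change was 0.11 and that of all genes -0.03; with upper-quartile scaling theirs was -0.09, and 1 was higher and 9 lower, beside 8.16% and 17.2% of all genes. Leaving out Angiotag IP 2 gave 8 higher and 6 lower, beside 15.7% and 13.9% of all genes. Leaving out Angiotag IP 3 gave 0 and 2, beside 6.74% and 4.73%, and leaving out Angiotag IP 1 gave 3 and 6, beside 16.8% and 18.6%. Leaving out any 1 input gave 0 higher and 3 lower, beside 5.62 to 6.61% and 3.81 to 6.64%. Against Ribotag input, Ribotag IP had 0 higher and 3 lower of 78, beside 0.7% and 0.496% of all genes. At an unadjusted p under 0.05, 20 were higher and 5 lower, beside 10.3% and 8.28% of all genes, and DESeq2 called 13 higher and 5 lower, beside 5.07% and 3.62%. The same-numbered Ribotag IP and input samples deviated together, and with the sample number as a block 15 rose and 5 fell, beside 7.20% and 6.99% of all genes. Without Ribotag IP 2 the fit with no block gave 13 higher and 4 lower, beside 4.62% and 5.42% of all genes. Without Ribotag IP 3 it gave 2 and 3, beside 2.17% and 1.14%. Without Ribotag IP 1 or any 1 input it gave 0 and 0, beside at most 0.00544% and 0.0761%. The median log2 fold change was 0.24 for these genes and -0.05 for all genes, with 57 of 78 above 0.

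The pulldowns were also compared with each other, to set the endothelial against the whole-embryo translatome. In Angiotag IP against Ribotag IP, 1 of 77 genes was higher and 6 were lower, beside 9.86% and 8.76% of all genes, with a median of -0.20 against -0.01. The number lower was 1 without Angiotag IP 3 or Ribotag IP 1 (2.08% and 4.16% of all genes) and 2 without Angiotag IP 2 (4.7%). It was 4 without Angiotag IP 1 or Ribotag IP 3 (7.68% and 7.53%). Without Angiotag IP 1 the number higher was 2 (9.8% of all genes). The inputs of both lines differed in 1 of 78 genes, which was lower in Angiotag (0.845% of all genes), and 0 were higher (0.818% of all genes); 4 were higher at an unadjusted p under 0.05 (11% of all genes) and 1 by DESeq2 (4.05%). FACS total and Angiotag input, both whole-embryo RNA of Angiotag embryos from different preparations, differed most: 8 of 79 genes were higher in FACS total and 20 lower, beside 25.2% and 21.2% of all genes. The 20 lower genes became 48 without FACS total 3 (30.3% of all genes), and 7 to 10 when any other single library was left out (11.9 to 16.5% of all genes). The 8 higher became 11 without FACS total 3 (32.2% of all genes) and 5 without Angiotag input 2 or 3 (17.7% and 18.5%).

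The enrichments over each group's own control were compared with interaction contrasts. Angiotag enrichment minus Ribotag enrichment was higher for 2 of 79 genes and lower for 3, beside 4.46% and 3.53% of all genes; with the sample number as a block it was 2 and 9, beside 7.85% and 7.79%. FACS enrichment minus Angiotag enrichment was higher for 1 of 79 and lower for 1, beside 5.12% and 3% of all genes. As single libraries were left out, these numbers ranged from 0 to 2 higher and 0 to 4 lower in the first, beside 2.83 to 6.03% and 1.4 to 4.83% of all genes. In the second they ranged from 0 to 2 in either direction, beside 1.95 to 6.07% higher and 0.479 to 3.57% lower. The libraries are named with each gene below.

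**Figure D1:**
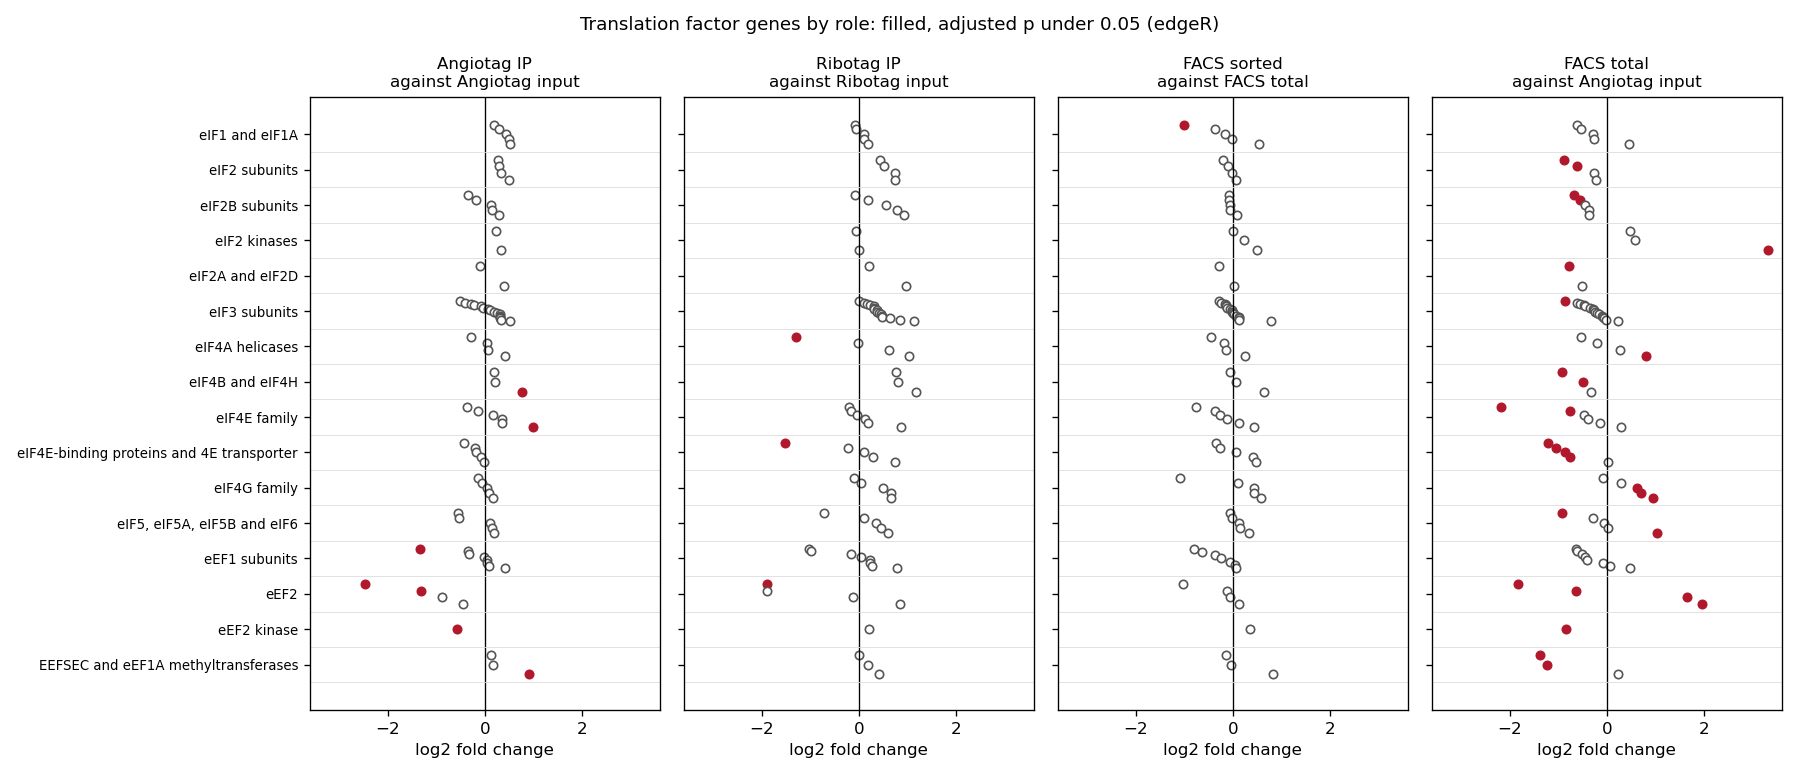
Log2 fold change (horizontal axis) of each tested translation factor gene, 1 point a gene, in rows by role and in 4 panels by comparison; filled points passed an adjusted p of 0.05 in edgeR. Points in the panel for FACS sorted against FACS total lie close to 0 with 1 filled, and the panel for FACS total against Angiotag input has 28 filled, 8 to the right and 20 to the left.

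The plot of fold changes by role shows where the calls lie: called eEF2 genes stand in 3 of its 4 panels, and the 4E-binding proteins stand together to the left in FACS total against Angiotag input. The account below follows the order of events in translation.

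eIF1 and eIF1A open the small subunit for scanning. The log2 fold changes of all 5 tested genes of this group were above 0 in Angiotag IP against input, at 0.19 to 0.52 (4 of 5 with upper-quartile scaling, where EIF1 was at -0.01). In edgeR 0 passed the adjusted threshold. At an unadjusted p under 0.05 there were 2, beside 18.6% of all genes higher, and by DESeq2 1, beside 15.3%. EIF1AD was at 0.49 ± 0.18 (adjusted p 0.0802; 0.0464 in DESeq2). EIF1AD, which encodes a protein with an eIF1A-like domain, was the 1 gene that fell in sorted cells. It was at 21.8, 20 and 25.2 CPM in the sorted samples, and FACS total held 44.8, 29.7 and 61.3. All sorted samples lay below all total samples, with FACS total 2 nearest to them. The log2 fold change was -1.0 ± 0.31 (adjusted p 0.0413), and the call was lost without any 1 sorted library, FACS total 1 or FACS total 3 (adjusted p 0.077 to 0.138) and with median-of-ratios scaling (0.0584). In Angiotag IP it was at 109, 84.9 and 83.4 CPM against 61.5, 73 and 60 in the inputs, the opposite order. The difference between both enrichments was itself tested, at -1.52 ± 0.36 on the log2 scale (FACS minus Angiotag, adjusted p 0.0247), and was lost without Angiotag input 1, Angiotag input 3 or FACS sorted 1 (adjusted p 0.0539 to 0.0783). EIF1, the group's most counted gene, was at 992, 1217 and 793 CPM in sorted cells and 625, 630 and 840 in the total RNA, which overlap (0.54 ± 0.29, adjusted p 0.2).

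eIF2 carries the initiator tRNA, and its 4 subunit genes tested were above 0 in both pulldowns, at 0.27 to 0.50 in Angiotag and 0.44 to 0.75 in Ribotag (0.08 to 0.30 and 0.35 to 0.65 with upper-quartile scaling). With the sample number as a block, 2 of them passed in Ribotag, beside 7.2% of all genes higher. Both genes named EIF2S1, for the alpha subunit that the stress kinases phosphorylate, were those 2: log2 fold changes with the block were 0.72 for ENSDARG00000005827 (adjusted p 0.0222) and 0.72 for ENSDARG00000052178 (0.027). In FACS total against Angiotag input, 2 of the 4 fell, beside 21.2% of all genes: EIF2S2 (beta subunit) by 0.88 and EIF2S1 (ENSDARG00000052178) by 0.62 on the log2 scale. EIF2S2 was at 295, 264 and 510 CPM in FACS total and 652, 649 and 550 in the inputs. FACS total 3 stood near the inputs and the other FACS total samples well below. Both calls were lost without any 1 library other than FACS total 3 (adjusted p 0.0729 to 0.154).

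eIF2B reloads eIF2 with GTP, and EIF2B5 encodes its catalytic subunit. EIF2B5 was at 28.3, 16.4 and 18.7 CPM in Angiotag IP, 43.6, 48.2 and 74.9 in Ribotag IP, 28.5, 25.4 and 25.8 in Angiotag input and 35.3, 31.3 and 33.4 in Ribotag input. Each Ribotag IP sample was above each sample of the other groups, with sample 3 the highest. Angiotag IP against Ribotag IP gave -1.43 ± 0.32 (adjusted p 0.0112; 0.0752 without Angiotag IP 3). Ribotag IP against input passed with the block, at 0.74 (adjusted p 0.0269). EIF2B3, for the gamma subunit, was at 57.5, 60.7 and 103 CPM in Ribotag IP and 43.5, 36.4 and 40.2 in its input, and also passed with the block, at 0.88 (adjusted p 0.0155). In FACS total against Angiotag input both fell, EIF2B3 by 0.68 and EIF2B5 by 0.56, the first lost without Angiotag input 2 or 3 (adjusted p 0.0569 to 0.0647) and the second without any 1 input or FACS total 1 (adjusted p 0.0625 to 0.0752).

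EIF2A encodes a separate initiator tRNA carrier that is not an eIF2 subunit. The Ribotag IP samples held 115, 115 and 161 CPM of it, and their inputs 69.4, 64.9 and 71. Angiotag IP was at 74.1, 57.2 and 66.7 CPM, its input at 75.8, 68.1 and 65.4. Only the Ribotag IP samples stood apart among these 4 groups, all above the rest. Angiotag IP against Ribotag IP was -1.02 ± 0.28 (adjusted p 0.0281), lost without Angiotag IP 2, Angiotag IP 3, Ribotag IP 1 or Ribotag IP 3 (adjusted p 0.0647 to 0.145). Ribotag IP against input was 0.97 ± 0.21 (adjusted p 0.0658; 0.00639 with the block). The Angiotag enrichment minus the Ribotag enrichment was -1.08 ± 0.27 on the log2 scale (adjusted p 0.0215), lost without any 1 input or Angiotag IP 3 (adjusted p 0.05 to 0.0848) and with all 18 libraries in 1 fit (0.071). EIF2D, only grouped with EIF2A here, fell in FACS total against Angiotag input, at -0.79 ± 0.22 (adjusted p 0.0194). That call was lost without Angiotag input 2 or 3 or FACS total 1 or 2 (adjusted p 0.05 to 0.0791).

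Of the eIF2 kinases, eif2ak2, the double-stranded RNA kinase, is named after its values were seen, because it lies under the level set for naming. It had 3 to 14 counts in the Angiotag input libraries (0.0733 to 0.341 CPM) and 50 to 152 in FACS total (1.1 to 2.97 CPM); FACS sorted held 31 to 170 counts. All FACS libraries were above all pulldown and input libraries. FACS total against Angiotag input gave 3.30 ± 0.58 (adjusted p 0.00259), on low counts. The other kinases tested, eif2ak1 (the heme-regulated kinase) and EIF2AK3 (the kinase of the endoplasmic reticulum), were at 0.47 ± 0.18 and 0.59 ± 0.22 in the same comparison (adjusted p 0.0614 and 0.0536).

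eIF3 is the large scaffold on the small subunit. It has 17 genes here, 16 of them tested. Their log2 fold changes had a median of 0.15 in Angiotag IP against input (10 above 0; -0.05 and 7 with upper-quartile scaling), 0.38 in Ribotag IP against input (15 above 0), -0.33 in Angiotag IP against Ribotag IP (2 above 0) and -0.02 in sorted cells against total RNA (7 above 0; -0.22 and 1 with upper-quartile scaling). In the Ribotag comparison 3 were higher at an unadjusted p under 0.05, beside 10.3% of all genes. Of the 16, 2 passed with the block and by DESeq2, beside 7.2% and 5.07% of all genes higher. EIF3A, which encodes the scaffold's largest subunit, was at 1059, 1281 and 1194 CPM in Ribotag IP and 462, 579 and 624 in its input. The lowest IP sample was well above the highest input. Its log2 fold change was 1.13 ± 0.23 (adjusted p 0.0581; 0.00492 with the block, where EIF3H, ENSDARG00000036116, passed at 0.84). In Angiotag IP it was at 757, 709 and 644 CPM against 529, 629 and 606, all above the inputs (0.24 ± 0.17, adjusted p 0.318). The difference between both enrichments was -0.91 ± 0.28 (adjusted p 0.0614; 0.029 with the block). EIF3K, a peripheral subunit, fell in FACS total against Angiotag input, at -0.86 ± 0.27 (adjusted p 0.0292), a call lost without any 1 library other than FACS total 3 (adjusted p 0.0666 to 0.107). EIF3D, the cap-contacting subunit, was at 630, 468 and 1169 CPM in Ribotag IP 1 to 3, with sample 3 far above the others, and it overlapped the inputs at 583, 474 and 610 (0.48 ± 0.34, adjusted p 0.489).

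The cap-binding complex and its helpers come next. EIF4EBP2 encodes a 4E-binding protein, which keeps eIF4E from joining eIF4G until mTOR phosphorylates it. The Ribotag IP samples held 62.7, 73.4 and 51.7 CPM of it, and their inputs 137, 223 and 192. Angiotag IP held 134, 240 and 217 CPM and Angiotag input 216, 233 and 226. Each Ribotag IP sample lay below each of the other 15 libraries, while Angiotag IP overlapped its input.

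The log2 fold change of EIF4EBP2 was -1.51 ± 0.24 in Ribotag IP against input (adjusted p 0.033) and -0.21 ± 0.22 in Angiotag IP against input (adjusted p 0.525). The first was lost without Ribotag IP 1 or any 1 input (adjusted p 0.158 to 0.197) and was 0.00128 with the block. Angiotag IP was above Ribotag IP by 1.61 ± 0.32 (adjusted p 0.0054), and this call was kept without any 1 library. The test of the difference between enrichments gave 1.28 ± 0.34 (Angiotag minus Ribotag, adjusted p 0.0327), lost without any 1 Angiotag input, Ribotag input 2 or 3, Angiotag IP 2 or 3 or Ribotag IP 1 (adjusted p 0.0602 to 0.0874). The other 4 genes of this group, with the transporter gene eif4enif1 counted, lay between -0.23 and 0.75 in Ribotag IP against input, and none of them passed in edgeR (1 higher at an unadjusted p under 0.05, beside 10.3% of all genes).

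EIF4A2 encodes an eIF4A, the helicase that unwinds the leader of the mRNA. Like EIF4EBP2 it was low in Ribotag IP, at 15.3, 10 and 16 CPM against 38.5, 30.6 and 34.3 in the input. In Angiotag IP it was at 18.1, 41.8 and 27.5 CPM against 30.3, 25.1 and 26.8. All Ribotag IP samples were below all other libraries, and Angiotag IP spread on both sides of its input. Ribotag IP against input was -1.29 ± 0.25 (adjusted p 0.0499; 0.00161 with the block), lost without Ribotag IP 1 or any 1 input (adjusted p 0.166 to 0.302), with median-of-ratios scaling (0.0527) and without mitochondrial genes and zgc:158463 (0.0527). Angiotag IP against Ribotag IP was 1.05 ± 0.35 (adjusted p 0.0543; 0.0454 with the block). The enrichments differed by 1.35 ± 0.39 (adjusted p 0.0485), lost without any 1 input, Angiotag IP 2 or 3 or Ribotag IP 1 or 2 (adjusted p 0.0594 to 0.119) and with upper-quartile scaling (0.0558).

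Another helicase gene went the other way: EIF4A3, whose protein belongs to the exon junction complex, was at 498, 400 and 659 CPM in Ribotag IP and 290, 224 and 266 in its input. All IP samples were above all inputs, and the log2 fold change of 1.04 ± 0.26 passed with the block (adjusted p 0.0846 without it, 0.0074 with it). The most counted helicase gene, eif4a1a, was at 1151, 1165 and 668 CPM in Ribotag IP and 668, 635 and 692 in its input. Ribotag IP 3 lay among the inputs, and the difference did not pass (0.62 ± 0.27, adjusted p 0.263).

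**Figure D2:**
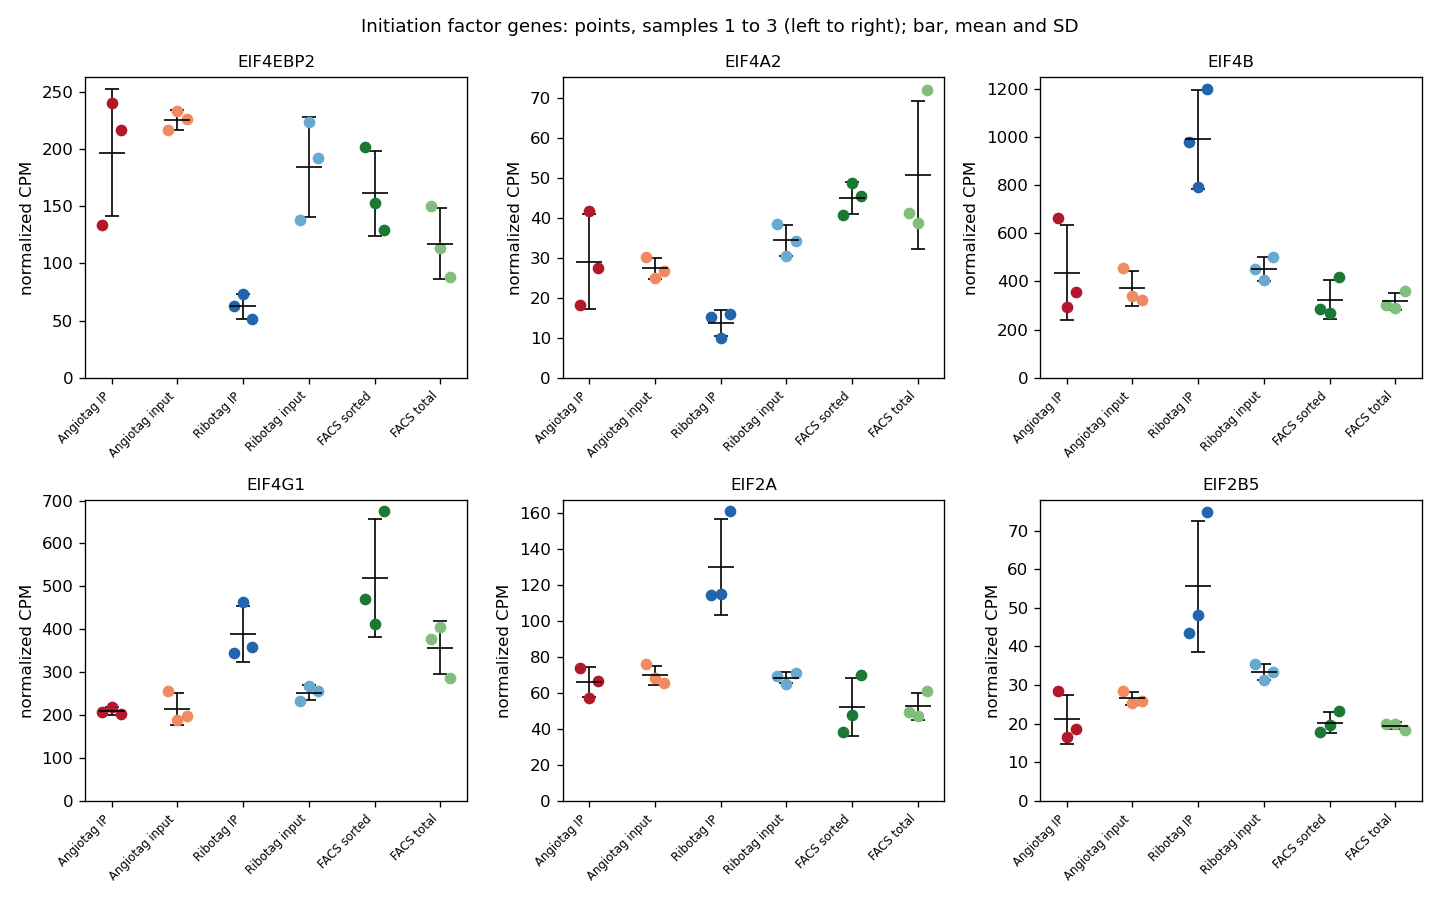
Normalized CPM (vertical axis, from 0) of 6 initiation factor genes in the 6 groups (horizontal axis); points are samples 1 to 3 from left to right, bars the mean and SD. EIF4EBP2 and EIF4A2 are lowest in Ribotag IP, and EIF4B, EIF2A and EIF2B5 are highest there.

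The plot of 6 initiation factor genes sets these side by side. eIF4B and eIF4H stimulate the helicase, and their 3 genes were at 0.76, 0.80 and 1.17 in Ribotag IP against input. All 3 were at an unadjusted p under 0.05, beside 10.3% of all genes higher. All 3 passed with the block and by DESeq2, beside 7.2% and 5.07% of all genes. EIF4B was at 978, 793 and 1201 CPM in Ribotag IP and 451, 404 and 501 in its input, with no overlap (1.17 ± 0.25, adjusted p 0.0622; 0.00387 with the block). Angiotag IP, at 663, 292 and 355 CPM, lay on both sides of its inputs at 456, 340 and 322, with sample 1 the highest. Angiotag IP against Ribotag IP gave -1.21 ± 0.38 (adjusted p 0.0436), lost without Angiotag IP 2 or 3 or Ribotag IP 1 or 3 (adjusted p 0.101 to 0.216) and with median-of-ratios scaling (0.0519). Its relative eif4ba rose in the Angiotag pulldown too, at 53.9, 61.2 and 86.1 CPM against 36.9, 39.8 and 40.4 in the input. All IP samples were above all inputs in both lines, with Ribotag IP at 58.7, 73.9 and 75.8 against 40.8, 42.5 and 40.2. The Angiotag log2 fold change was 0.77 ± 0.21 (adjusted p 0.0267), lost without Angiotag IP 3 or any 1 input (adjusted p 0.0788 to 0.112) and with upper-quartile scaling (0.0586), and the Ribotag one passed with the block at 0.79 (adjusted p 0.0126).

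Among the eIF4E genes, eif4e2rs1, a relative of eif4e2, was at 189, 71.8 and 118 CPM in Angiotag IP and 67.6, 60.2 and 60.7 in its input. The IP samples were spread but all above the inputs. Its log2 fold change was 0.99 ± 0.31 (adjusted p 0.0462), lost without Angiotag IP 3 or any 1 input (adjusted p 0.113 to 0.152) and with upper-quartile scaling or the 1 CPM filter (0.0999 and 0.053); in Ribotag IP it passed with the block, at 0.85 (adjusted p 0.00931). EIF4E2, which encodes the cap-binding protein 4EHP that represses translation, was at 6.51, 5.72 and 12.2 CPM in FACS total and 4.73, 6.27 and 3.4 in sorted cells. The 12 pulldown and input libraries all held between 21.6 and 36.9 CPM, so both FACS groups lay below all of them. FACS total against Angiotag input was -2.17 ± 0.32 (adjusted p 0.00116), the largest fall among these genes in that comparison.

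eIF4G is the scaffold between cap and ribosome. EIF4G1 was at 343, 464 and 358 CPM in Ribotag IP, 233, 267 and 257 in its input, and 206, 219 and 201 in Angiotag IP. Ribotag IP lay above both others with no overlap. Angiotag IP against Ribotag IP was -0.93 ± 0.29 (adjusted p 0.0413), lost without any 1 library other than Ribotag IP 3 (adjusted p 0.0744 to 0.213) and with no filter (0.0582), and Ribotag IP against input passed with the block at 0.65 (adjusted p 0.0386), as did EIF4G3 (ENSDARG00000077215) at 0.66. In FACS total EIF4G1 was at 378, 405 and 287 CPM against 257, 188 and 198 in Angiotag input, and it rose by 0.62 ± 0.21 (adjusted p 0.0387), lost without Angiotag input 2 or 3 or FACS total 1 or 2 (adjusted p 0.0916 to 0.17). Both genes named EIF4G2, for a relative of eIF4G that lacks the eIF4E-binding site, rose there as well: ENSDARG00000057167 was at 465, 476 and 479 CPM in FACS total and 232, 231 and 222 in Angiotag input (0.95 ± 0.17, adjusted p 0.00316), and ENSDARG00000020377 rose by 0.69 ± 0.17 (adjusted p 0.0117; 0.0732 to 0.0735 without Angiotag input 2 or 3).

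The late initiation factors include eif5b, the GTPase that joins the subunits, and eif5a, whose hypusine-bearing protein helps the ribosome elongate. eif5b was at 126, 148 and 150 CPM in FACS total and 139, 121 and 262 in FACS sorted, against 63.3, 59.5 and 70 in Angiotag input and 36.4, 48 and 49.7 in Angiotag IP. The FACS samples were above all of these, and Angiotag IP below its input. FACS total against Angiotag input rose by 1.03 ± 0.17 (adjusted p 0.00225). Ribotag IP held 67.3, 110 and 83.5 CPM, and Angiotag IP against it was -1.0 ± 0.29 (adjusted p 0.0335), a call lost without any 1 of the 6 libraries (adjusted p 0.0511 to 0.124) and kept with the block (0.0121). eif5a was below its input in all samples of Ribotag IP, at 1010, 772 and 786 CPM against 1399, 1466 and 1522, and passed there with the block at -0.74 (adjusted p 0.0366). With the block it also passed in Angiotag IP, at -0.63 (adjusted p 0.0476), on samples at 682, 1618 and 1078 CPM that overlap the inputs at 1521, 1816 and 1550; eif5b passed there at -0.55 (adjusted p 0.0475). The other eIF5A gene, EIF5A2, did not move with eif5a in Ribotag IP. Its raw counts were 40417, 61665 and 17202 in Ribotag IP 1 to 3 and 29576, 55766 and 29605 in the inputs. Samples 1 and 2 were higher and sample 3 lower, and it did not pass in edgeR without the block.

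eEF1A and its exchange factor eEF1B deliver tRNAs. eef1a1l1 was at 24504, 20809 and 34428 CPM in Ribotag IP and 16196, 14684 and 16651 in its input. All IP samples were higher, sample 3 by the most, and the log2 fold change of 0.79 ± 0.30 did not pass in edgeR (adjusted p 0.211) and did in DESeq2 (0.0287). In Angiotag IP, at 16239, 23229 and 17585 CPM against 18022, 20510 and 18461, it overlapped the input (-0.02 ± 0.19, adjusted p 0.96). In sorted cells it was at 11596, 15252 and 13364 CPM against 12354, 11758 and 15140, again with overlap (0.06 ± 0.31, adjusted p 0.901).

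EEF1E1 carries an eEF1 name, and its protein in mammals is a scaffold of the multi-tRNA synthetase complex. It was at 8.2, 8.81 and 10.3 CPM in Angiotag IP and 19.6, 21.1 and 27 in its input, against 26.8, 26.1 and 16.5 in Ribotag IP and 24, 31.1 and 24.9 in that input. Angiotag IP lay below every sample of the other 3 groups, and Ribotag IP overlapped its input. The Angiotag log2 fold change was -1.33 ± 0.20 (adjusted p 0.00207), kept without any 1 library. Angiotag IP against Ribotag IP was -1.39 ± 0.30 (adjusted p 0.00971; 0.0502 without Ribotag IP 1). The enrichments differed by -1.19 ± 0.32 (adjusted p 0.0332), lost without 10 of the 12 single libraries, those other than Ribotag IP 2 and 3 (adjusted p 0.0536 to 0.115), and with all 18 libraries in 1 fit (0.098). FACS sorted was also below FACS total in every sample, at 17.2, 10.4 and 20.9 CPM against 25.5, 21.3 and 29.6, a difference that did not pass (-0.64 ± 0.31, adjusted p 0.16).

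The 22 cytosolic aminoacyl-tRNA synthetase and scaffold genes, a list taken for the same pathway, can be set beside EEF1E1. In Angiotag IP against Ribotag IP, 7 of 22 passed, all lower, beside 8.76% of all genes, and all 22 log2 fold changes were below 0, with a median of -0.82 where all genes had -0.01. EPRS1, which charges glutamate and proline tRNAs, was at -1.33 ± 0.30 (adjusted p 0.0106) and IARS1, for isoleucine, at -1.22 ± 0.28 (adjusted p 0.0117). In Ribotag IP against input 1 of 22 passed, higher, beside 0.7% of all genes (12 higher at an unadjusted p under 0.05, beside 10.3%), with a median of 0.62. In Angiotag IP against input 2 passed, both lower, near the 11.9% of all genes, with a median of -0.14. These comparisons share the IP libraries. The calls of the synthetase list were not followed in fits that left out single libraries or changed the scaling.

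The 4 eEF2 genes behaved apart from one another, and reads of such close copies may have been split between them in ways that the table does not show. eef2b, the most counted, was at 9964, 9404 and 14318 CPM in Ribotag IP and 6358, 6013 and 6862 in its input. Angiotag IP held 5296, 6282 and 3615 CPM and its input 7032, 7098 and 6456. Every Ribotag IP sample was above its inputs and every Angiotag IP sample below its own. Neither passed alone (0.85 ± 0.28, adjusted p 0.16, and -0.46 ± 0.22, adjusted p 0.157), and with the block the Ribotag rise passed (adjusted p 0.0312) and the Angiotag difference did not (0.0525). The test of the difference between enrichments passed, at -1.32 ± 0.38 (adjusted p 0.0463), lost without 10 of the 12 single libraries, those other than Angiotag IP 2 and Ribotag IP 2 (adjusted p 0.0593 to 0.165). It was also lost with median-of-ratios scaling (0.0594), no filter (0.0888) and without mitochondrial genes and zgc:158463 (0.0556), and was 0.00835 with the block.

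The gene named EEF2 (ENSDARG00000035256) was at 23, 34.2 and 32.7 CPM in Angiotag IP and 47.5, 86.5 and 87.2 in its input, all lower. Ribotag IP, at 25.9, 35.2 and 46.9 CPM, overlapped its input at 32.2, 45.9 and 42.3. The Angiotag fall was -1.31 ± 0.27 (adjusted p 0.00861), kept without any 1 library, and the Ribotag value was -0.11 ± 0.25 (adjusted p 0.85). FACS total, at 20.9, 13.1 and 32.1 CPM, was below Angiotag input in every sample (-1.84 ± 0.38, adjusted p 0.00519).

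The copies eef2a.1 and eef2a.2 are neighbouring protein-coding genes in RefSeq's gene table (assembly GRCz12tu). eef2a.2 was at 0.516, 2.69 and 1.4 CPM in Angiotag IP, with 9 to 104 counts a library, and 11.6, 5.62 and 8.84 in its input. In Ribotag IP it was at 1.65, 3.55 and 1.31 CPM against 10.2, 7.49 and 7.2. Each IP sample of both lines lay below each input sample.

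The log2 fold change of eef2a.2 was -2.46 ± 0.50 in Angiotag (adjusted p 0.0083; 0.0566 without Angiotag IP 3) and -1.88 ± 0.41 in Ribotag (adjusted p 0.0653; 0.0045 with the block). The FACS groups held more of it than any other library, at 25.9, 18.2 and 35 CPM in sorted cells and 25.4, 29.4 and 32.7 in FACS total, and they overlapped each other (-0.13 ± 0.30, adjusted p 0.791). FACS total was above Angiotag input by 1.65 ± 0.28 (adjusted p 0.00221). The FACS enrichment exceeded the Angiotag enrichment by 2.33 ± 0.60 (adjusted p 0.0323), lost without Angiotag input 1 or 3, Angiotag IP 3, FACS sorted 1 or 3 or FACS total 1 or 2 (adjusted p 0.0587 to 0.0958) and with the sample number as a block (0.0665).

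eef2a.1 was the 1 gene that differed between the inputs of the lines. The Angiotag inputs held 10.9, 5.23 and 6.77 CPM of it and the Ribotag inputs 27.7, 32.6 and 37.7. Ribotag IP held 6.78, 8.9 and 10 CPM, Angiotag IP 4.93, 6.92 and 0.74, and FACS total 28.1, 28.6 and 38.7. FACS total, although from Angiotag embryos, was at the level of Ribotag input, and Ribotag IP at that of Angiotag input. Angiotag input against Ribotag input was -2.08 ± 0.24 (adjusted p 0.00704, kept without any 1 library, but 0.316 with all 18 libraries in 1 fit). Ribotag IP against input was -1.89 ± 0.23 (adjusted p 0.0181; 0.00019 with the block), lost without Ribotag IP 1 or any 1 input (adjusted p 0.0911 to 0.147) and with all 18 libraries in 1 fit (0.0502). Angiotag IP overlapped its input (-0.89 ± 0.62, adjusted p 0.332). FACS total was above Angiotag input by 1.96 ± 0.30 (adjusted p 0.00144).

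**Figure D3:**
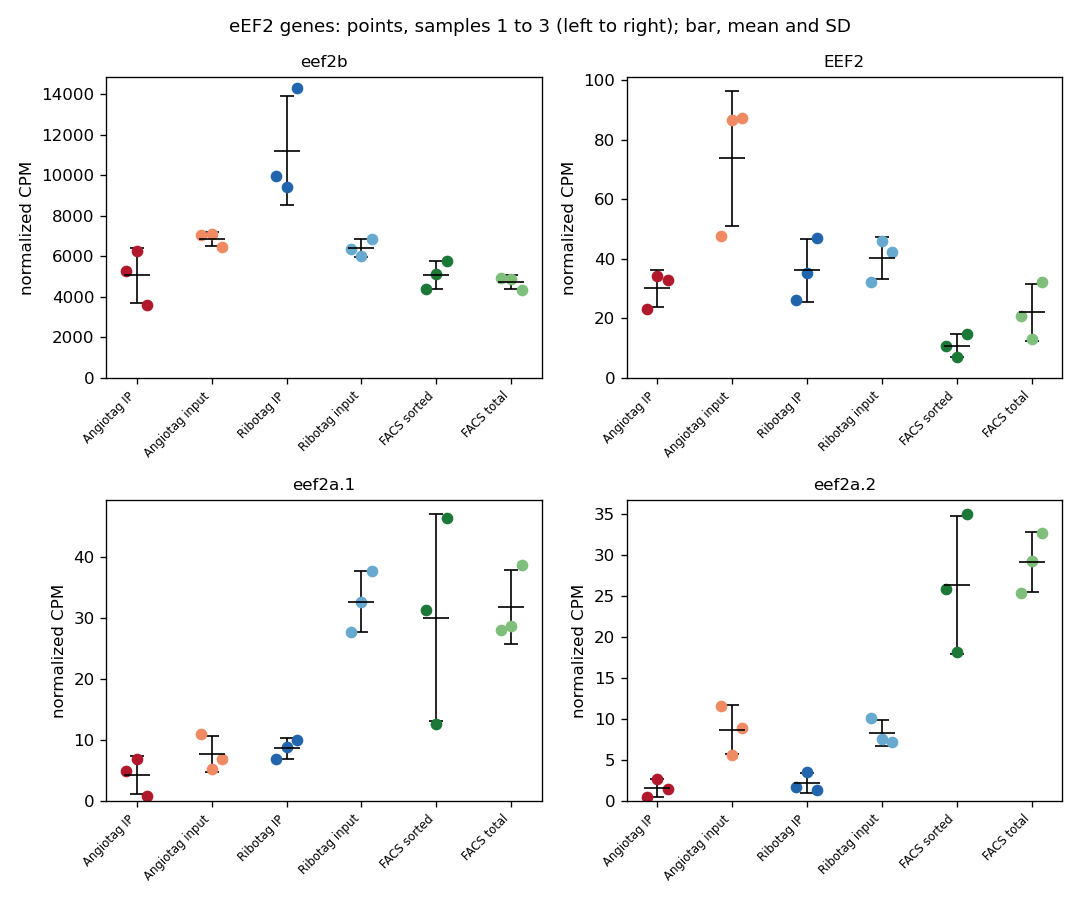
Normalized CPM (vertical axis, from 0, with its own scale in each panel) of the 4 eEF2 genes in the 6 groups (horizontal axis); points are samples 1 to 3 from left to right, bars the mean and SD. eef2b is highest in Ribotag IP, EEF2 in Angiotag input, and eef2a.2 in both FACS groups.

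The plot of the eEF2 genes shows that each had its highest mean in another group: eef2b in Ribotag IP, EEF2 in Angiotag input, eef2a.1 in Ribotag input and eef2a.2 in FACS total, the last 2 with the next group overlapping. EEF2K encodes the kinase that phosphorylates eEF2 and halts it. It was at 51.2, 50.9 and 52.4 CPM in Angiotag IP and 63.5, 74.1 and 88.8 in its input. The IP samples were nearly equal and all below the inputs (-0.57 ± 0.18, adjusted p 0.0459), and the call was lost without any 1 input, Angiotag IP 2 or Angiotag IP 3 (adjusted p 0.0579 to 0.243), with no filter (0.0539) and with all 18 libraries in 1 fit (0.138). In FACS total it was at 33.8, 34.6 and 65.8 CPM, where sample 3 overlapped the inputs (-0.85 ± 0.30, adjusted p 0.0491), and that call was lost without any 1 library other than FACS total 3 (adjusted p 0.0696 to 0.158).

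EEFSEC encodes the elongation factor for selenocysteine. It was at 28.8, 18.4 and 32.3 CPM in Angiotag IP and 13.6, 15.1 and 13 in its input. All IP samples were higher, sample 2 the least so, at 0.92 ± 0.23 (adjusted p 0.0202), lost without Angiotag IP 3 or any 1 input (adjusted p 0.0598 to 0.0995). FACS total was at 6.25, 5.35 and 7.41 CPM, all below Angiotag input (-1.23 ± 0.22, adjusted p 0.00258). In edgeR EEFSEC did not pass in Ribotag IP against input or in FACS sorted against FACS total. In the latter, with upper-quartile scaling, it was at 0.62 and was the 1 gene of its role above 0. EEFSEC was thus above 0 in sorted cells as in Angiotag IP, without a call in sorted cells. EEF1AKMT1, a lysine methyltransferase of eEF1A, was also lower there, at 9.66, 4.57 and 11.2 CPM against 19.8, 24 and 18.1 (-1.38 ± 0.33, adjusted p 0.0106).

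In FACS total against Angiotag input several roles held more than 1 call. All 4 of the 4E-binding protein genes tested fell, beside 21.2% of all genes: EIF4EBP2 by 1.05 ± 0.21 (adjusted p 0.00485), eif4ebp1 by 1.21 ± 0.28 (0.00858), eif4ebp3 (ENSDARG00000054916) by 0.86 ± 0.31 (0.0498) and EIF4EBP3 (ENSDARG00000041607) by 0.76 ± 0.27 (0.0448). EIF4EBP2 was at 150, 113 and 88.2 CPM in FACS total, and eif4ebp1 at 76.6, 53.2 and 109 against 166, 183 and 168 in the inputs. Both of these were kept without any 1 library, while eif4ebp3 and EIF4EBP3 were lost without any 1 library other than FACS total 3 (adjusted p 0.0711 to 0.158) and with all 18 libraries in 1 fit (0.0756 and 0.0707). eif4ebp3 was also lost with median-of-ratios scaling (0.0511), upper-quartile scaling (0.0539) and a filter of 1 CPM in 3 libraries (0.0566). Of the 5 eIF4G genes 3 passed, all higher, beside 25.2% of all genes.

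Of the 28 genes called there, 12 kept the call without any 1 library: the 7 lower ones were EIF4E2, EEF2, EEF1AKMT1, EEFSEC, eif4ebp1, EIF4EBP2 and eif4ba, and the 5 higher ones eif2ak2, eef2a.1, eef2a.2, eif5b and EIF4G2 (ENSDARG00000057167). Besides those given above, EIF4A2 rose by 0.80, lost without any 1 input (adjusted p 0.0907 to 0.143), and eif4eb, EIF4H and eef2b fell by 0.76, 0.49 and 0.64, each lost without any 1 library other than FACS total 3 (adjusted p 0.0754 to 0.149). EIF4H was also lost with median-of-ratios scaling, upper-quartile scaling, no filter, the 1 CPM filter and all 18 libraries in 1 fit (0.052 to 0.118), and eef2b with upper-quartile scaling, the 1 CPM filter and all 18 libraries (0.055 to 0.106). All 18 libraries in 1 fit also ended the calls of EIF2B3 (0.0741), EIF2B5 (0.151), EIF2S1 (0.103), EIF2S2 (0.0872) and EIF3K (0.0599) in this comparison, and upper-quartile scaling and the 1 CPM filter those of EIF2S1 and EEF2K (0.0502 to 0.0548). The sample number as a block ended those of eef2b (0.166), EIF4H (0.139), EIF4G1 (0.082) and EIF2B5 (0.0804). It also ended those of EIF2S1 (0.0766), EIF4A2 (0.0581) and eif4ebp3 (0.0531), though the numbers did not pair these samples. Genes past the 8 largest falls, such as eif4eb and EIF4H, were named after their values were seen. eif5a, at -0.92, was lost without Angiotag input 2 or FACS total 1 (adjusted p 0.0569 to 0.0626).

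**Figure D4:**
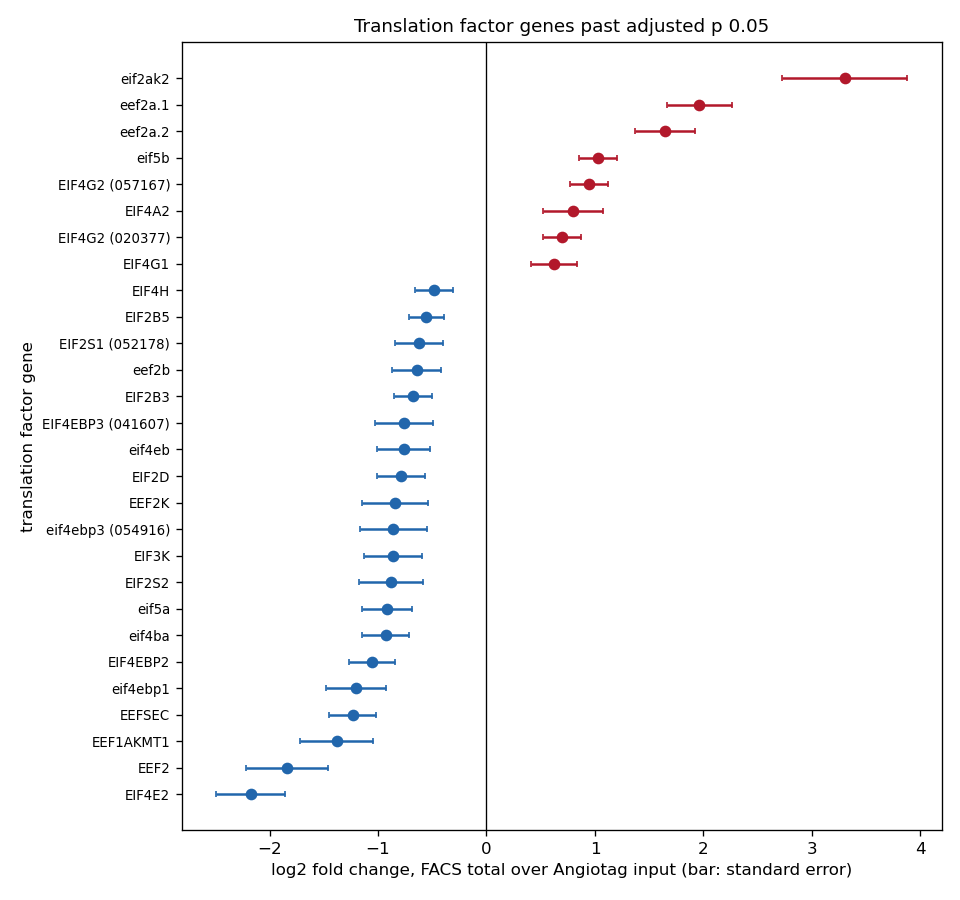
Log2 fold change (horizontal axis) with its standard error for the 28 translation factor genes past an adjusted p of 0.05 in FACS total against Angiotag input (vertical axis, by value; 6 end digits of the Ensembl ID where names repeat). The 8 higher genes run from EIF4G1 at 0.62 to eif2ak2 at 3.30, and the 20 lower from EIF4H at -0.49 to EIF4E2 at -2.17.

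The plot of the 28 genes shows 20 lower and 8 higher calls, beside 21.2% and 25.2% of all genes. Of these, 7 lower and 5 higher calls were kept without any 1 library. Other translation genes also differed in FACS total against Angiotag input. Of 10 genes induced when eIF2 is phosphorylated under stress, 8 passed, all higher, beside 25.2% of all genes, with a median of 2.23 against -0.02 for all genes: ATF3, a stress transcription factor, was at 6.56 ± 0.55 (adjusted p 0.000108), DDIT3, which encodes CHOP, at 3.90 ± 0.43 (0.00036), and ppp1r15a, the eIF2 phosphatase subunit GADD34, at 3.46 ± 0.23 (4.58e-05). The kinases of eIF4E rose too, mknk1 at 1.61 ± 0.22 (adjusted p 0.000924) and both genes named MKNK2 at 2.17 (ENSDARG00000011373) and 1.52 (ENSDARG00000015164). In the mTOR pathway 2 of 12 rose and 3 fell, near the shares of all genes (25.2% and 21.2%). One of them, rps6kb1a, an S6 kinase gene, was at 3.02 ± 0.24 (adjusted p 9.33e-05). It is a copy of low level in the pulldowns, with means of 0.822 CPM in Angiotag IP and 1.51 in Ribotag IP. The other copy, rps6kb1b, had means of 57.1 and 69.9 CPM there. Of 80 cytosolic ribosomal protein genes 19 fell, a share near the 21.2% of all genes, and 0 rose, beside 25.2% of all genes. Their median was -0.66, against -0.02 for all genes. Of the 5 poly(A)-binding protein genes and partners 3 fell (21.2% of all genes).

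Markers also differed between these preparations. Of 6 genes known to respond to cell dissociation, 4 were higher in FACS total (25.2% of all genes). The sum of all 6 overlapped between the groups, at 3560 to 5180 CPM in FACS total against 3720 to 4320 in Angiotag input. Skeletal muscle markers summed to 1010 to 3410 CPM in FACS total against 10100 to 14900 in Angiotag input, and ribosomal protein genes took 12.5 to 19.5% of counts against 19 to 21.3%. Their part in the differences of the translation factor genes was not tested.

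A list fixed by name took 19 of the 84 genes, of which 17 or 18 were tested, as having human orthologs with a terminal oligopyrimidine tract. It holds names for eEF1A1, eEF1B, eEF1D, eEF1G, eEF2, eIF3E, eIF3F, eIF3H and eIF4B. The other translation factor genes may also include some with such a tract. Listed genes had medians near those of the others, except in Angiotag IP against Ribotag IP, where theirs was lower. Their median log2 fold change was 0.01 in Angiotag IP against input, where the others had 0.14, and 0.25 in Ribotag IP against input, where the others had 0.22. In FACS sorted against FACS total it was -0.06 against -0.02, in FACS total against Angiotag input -0.37 against -0.28, and in Angiotag IP against Ribotag IP -0.43 against -0.17. Cytosolic ribosomal protein genes, the largest class with such a tract, had medians of 0.16, -0.11, -0.11, -0.66 and 0.71 in these 5 comparisons, in the same order.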

How the data were processed

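Whole-number read counts per Ensembl gene were used as deposited, in 1 table of 25193 genes and 18 libraries, with 0 columns unused. Per the submitters' processing notes the tools were STAR 2.4.2a, RSEM 1.2.22 and DESeq2 with build GRCz10, in roles not given; the counts may be rounded RSEM estimates. Per the labels, libraries were stranded and made after polyA selection or rRNA depletion, without saying which library had which. Names came from the gene name table matched by Ensembl ID (22548 genes named); many are written in capitals as their human orthologs.

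Counts were tested with edgeR 4.0.16 (R 4.3.3): TMM scaling, filterByExpr (minimum count 10, minimum total 15), quasi-likelihood F-tests on the groups compared, Benjamini-Hochberg adjustment over all genes tested. Standard errors are the log2 fold change over the square root of F. CPM levels cover 20517 genes. Same-numbered samples deviated together for IP and input of each line (r 0.226 to 0.449 in Angiotag and 0.311 to 0.718 in Ribotag) and for both IPs (0.193 to 0.26), so values with the sample number as a block are given where they change a call. The inputs of both lines did not pair by number (r 0.207, -0.383 and -0.143), so block values between IPs rest on the IP correlations alone. Alternatives were median-of-ratios and upper-quartile scaling, DESeq2 1.42.0, other filters, all 18 libraries in 1 fit, leaving out mitochondrial genes and zgc:158463, and leaving out each library. Calls of single genes were followed in them for the translation factor genes, not for the other lists. By rule, the text names up to 8 called genes per direction and comparison whose average log2 CPM reaches 2, and the most counted gene of each role; other names were chosen after their values were seen. The genes and lists were chosen with earlier results of these data known. Gene sequences were not used here.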

Additional observations from a re-analysis of the deposited data

Results flagged for a closer look

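For 7 genes the enrichment over its own control differed between preparations, by a test of the difference itself (edgeR quasi-likelihood interaction contrasts, adjusted over all genes). Between Angiotag and Ribotag pulldowns (Angiotag minus Ribotag, log2) the differences were 1.35 for EIF4A2, 1.28 for EIF4EBP2, -1.32 for eef2b, -1.19 for EEF1E1 and -1.08 for EIF2A. These are 2 higher and 3 lower of 79 genes tested, beside 4.46% and 3.53% of all genes. With the sample number as a block 2 were higher and 9 lower, beside 7.85% and 7.79% of all genes; the added ones include EEF2 at -1.17 (adjusted p 0.00449), EIF2B5 at -1.14 (0.0109), EIF4B at -1.04 (0.0173) and EIF3A at -0.91 (0.029).

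Between cell sorting and the Angiotag pulldown (FACS minus Angiotag, log2) the differences were 2.33 for eef2a.2 and -1.52 for EIF1AD, that is 1 higher and 1 lower of 79 genes, beside 5.12% and 3.00% of all genes. All 7 calls were lost without some single libraries, with adjusted p between 0.05 and 0.165 in those fits. Other settings ended 5 of them: eef2b with median-of-ratios scaling (0.0594), with no filter (0.0888) and without mitochondrial genes and zgc:158463 (0.0556), EEF1E1 and EIF2A with all 18 libraries in 1 fit (0.098 and 0.071), EIF4A2 with upper-quartile scaling (0.0558), and eef2a.2 with the sample number as a block (0.0665).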

How the results depend on the processing

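None of the 798 values of single called genes under the alternatives changed direction; 573 kept the call and 225 lost it. Counts of called genes that moved by more than 1.5 times are given as higher or lower, and their cause was not tested. Brackets give the share of all genes called in the same fit and direction. Upper-quartile scaling gave 1 higher (8.16%) and 9 lower (17.2%) in Angiotag IP against input, and 3 lower (18.9%) in FACS sorted against FACS total. For Angiotag minus Ribotag enrichment it gave 1 higher (4.09%) and 7 lower (4.57%). Median-of-ratios scaling gave 0 lower (13.3%) in FACS sorted against FACS total, where edgeR with TMM gave 1 (14.8%), and put the summed CPM of the genes in FACS sorted at 39550 in place of 35630. DESeq2 gave 7 lower (15.3%) in Angiotag IP against input, and 13 higher (5.07%) and 5 lower (3.62%) in Ribotag IP against input. It gave 2 higher (13.4%) and 10 lower (12.3%) between IPs, and 1 higher (4.05%) and 2 lower (4.68%) between inputs. In FACS sorted against FACS total it gave 1 higher (17.4%), and for Angiotag minus Ribotag 8 lower (6.02%). All 18 libraries in 1 fit gave 6 higher (1.82%) in Ribotag IP against input, 3 higher (14.9%) and 16 lower (14.5%) between IPs, and 0 lower (0.0244%) between inputs. That fit gave 1 higher (14.8%) and 4 lower (17.2%) in FACS sorted against FACS total. It gave 11 lower (12.1%) in FACS total against Angiotag input, and 1 lower (1.49%) for Angiotag minus Ribotag. Without a filter 2 were higher between IPs (8.94%) and 1 between inputs (1.19%), and with at least 1 CPM in 3 libraries 2 were lower in FACS sorted against FACS total (16.3%). With the sample number as a block, 15 were higher (7.2%) and 5 lower (6.99%) in Ribotag IP against input, 2 were higher (13.8%) between IPs, and 9 were lower (7.79%) for Angiotag minus Ribotag. Numbers did not pair the samples of the other groups. There the block gave 1 higher (0.607%) between inputs, 3 lower (13.5%) in FACS sorted against FACS total and 0 higher (4.46%) for FACS minus Angiotag enrichment. As single libraries were left out, higher and lower calls ranged from 0 to 8 (5.62 to 16.8%) and 2 to 6 (3.81 to 18.6%) in Angiotag IP against input. The ranges were 0 to 13 (0 to 4.62%) and 0 to 4 (0.0267 to 5.42%) in Ribotag IP against input, and 0 to 0 (8.45 to 15.6%) and 0 to 1 (7.84 to 13.8%) in FACS sorted against FACS total. They were 1 to 2 (4.53 to 9.82%) and 1 to 6 (2.08 to 7.68%) between IPs, and 0 to 2 (0.0159 to 2.2%) and 1 to 2 (0.0636 to 2.33%) between inputs. In FACS total against Angiotag input they were 5 to 11 (17.7 to 32.2%) and 7 to 48 (11.9 to 30.3%). For Angiotag minus Ribotag they were 0 to 2 (2.83 to 6.03%) and 0 to 4 (1.4 to 4.83%), and for FACS minus Angiotag 0 to 2 (1.95 to 6.07%) and 0 to 2 (0.479 to 3.57%). The median of all genes moved by 0.162 under median-of-ratios scaling for FACS minus Angiotag, and by 0.106 with all libraries in 1 fit in FACS total against Angiotag input. With 3 samples a group, the median standard error of these genes was 0.152 to 0.33 on the log2 scale by pairwise comparison, which limits the changes that could be detected.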
